A study of Drosophila melanogaster with 4 samples.

Results

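The genes examined here encode proteins of the trithorax group and the Brahma remodelling complex, 10 genes of the 13945 protein-coding genes on the 6 main chromosome arms of Drosophila melanogaster. They were taken by name as trx, ash2, Rbbp5, ash1, brm, mor, Snr1, osa, fs(1)h and kis, and all 10 had a single match in the dm6 annotation. The data are peak lists from chromatin immunoprecipitation of CG8924 with an anti-GFP antibody, in whole embryos of pooled sex aged 0 to 24 h, from a transgenic line in which CG8924 carries a GFP tag at its C terminus. There was 1 group of 4 biological replicates and no second condition, so nothing was compared between groups. Whole embryos mix all cell types, so a peak carried by few cells cannot be told apart from a weak peak carried by many. A summit, the base of highest enrichment in a peak, was counted for a gene when it lay inside the gene or within 5 kb of either end.

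Trithorax group proteins keep developmental genes, among them the homeotic genes, in the active state that was set early in the embryo, and they work against the silencing by Polycomb group proteins. Some are histone methyltransferases or subunits shared by such enzymes, and others slide or evict nucleosomes with the energy of ATP. The Brahma complex is the fly form of the SWI/SNF remodeller.

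The lists behind these results were made by the authors. The thresholded list held 7842 peaks, the pooled list and each replicate list 30000, and ranks below run from 1 for the highest signal in a list. Signal values are the authors' own and are on a different scale in each list, so replicates were compared by rank. The pooled and thresholded lists came from replicates 2, 3 and 4, so replicate 1 took no part in choosing the peaks. Support for a thresholded peak from a replicate means an overlap of at least 1 bp with any of the 7842 peaks that rank highest in that replicate.

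CG8924 peaks were found at or near every one of the 10 genes, and at the promoters of 8 of them. All 10 had a thresholded summit inside the gene or within 5 kb, against 60.7% of all protein-coding genes. A thresholded summit within 500 bp of a transcription start site (TSS) was present for brm, Rbbp5, fs(1)h, kis, trx, mor, ash1 and osa, 8 of 10 (80%), against 31.4% of all protein-coding genes. Snr1 and ash2 had none. In the replicates' own 7842 highest peaks the number of the 10 genes with a promoter summit was 8, 9, 9 and 10 for replicates 1 to 4, a mean of 9.0 ± 0.816 (SD, n = 4). The matching share of all protein-coding genes was 31%, 30.5%, 31.4% and 31.2% in the same order. No test was made on a list of 10 genes chosen by name, with earlier results of these data known.

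The 10 genes held 42 thresholded summits, from 1 each at Snr1, ash2 and Rbbp5 to 8 each at trx and kis. Between these, fs(1)h held 7, osa 6, mor 4, and brm and ash1 3 each. Of the 42 summits, 22 lay inside the gene and 20 outside it, and 24 lay closer to the TSS of another gene than to one of the named gene. Within the 251 kb of the gene windows there were 1.68 summits per 10 kb, and the value ran from 0.75 at ash2 to 2.71 at mor. Over the 6 arms, which include sequence far from genes, it was 0.59. In the same window per gene the median was 3.5 summits at the 10 genes and 1.0 over all protein-coding genes, with gene length not matched. The long genes trx (23.5 kb), fs(1)h (23.6 kb), osa (30.5 kb) and kis (40.1 kb) together held most of the 42. By place, 24 summits were within 500 bp of some TSS and were not sorted further by exon or intron. Of the rest, 17 were in introns, 1 was in an exon of a non-coding RNA gene and none was in a coding exon. The matching shares by place and by nearest TSS over the whole list are not given here. These counts therefore show no trait particular to the 10 genes. The median rank of the 42 was 3472.5, against 3921.5 over the whole list. Of the 24 within 500 bp of some TSS, 13 were that close to a TSS of the named gene and 11 only to a TSS of another gene. Among the 11 were summits at non-coding genes nested in osa and kis. All 4 replicates supported 27 of the 42 (64.3%), against 64.2% of all thresholded peaks, 3 replicates supported 11, and none was without support.

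**Figure D1:**
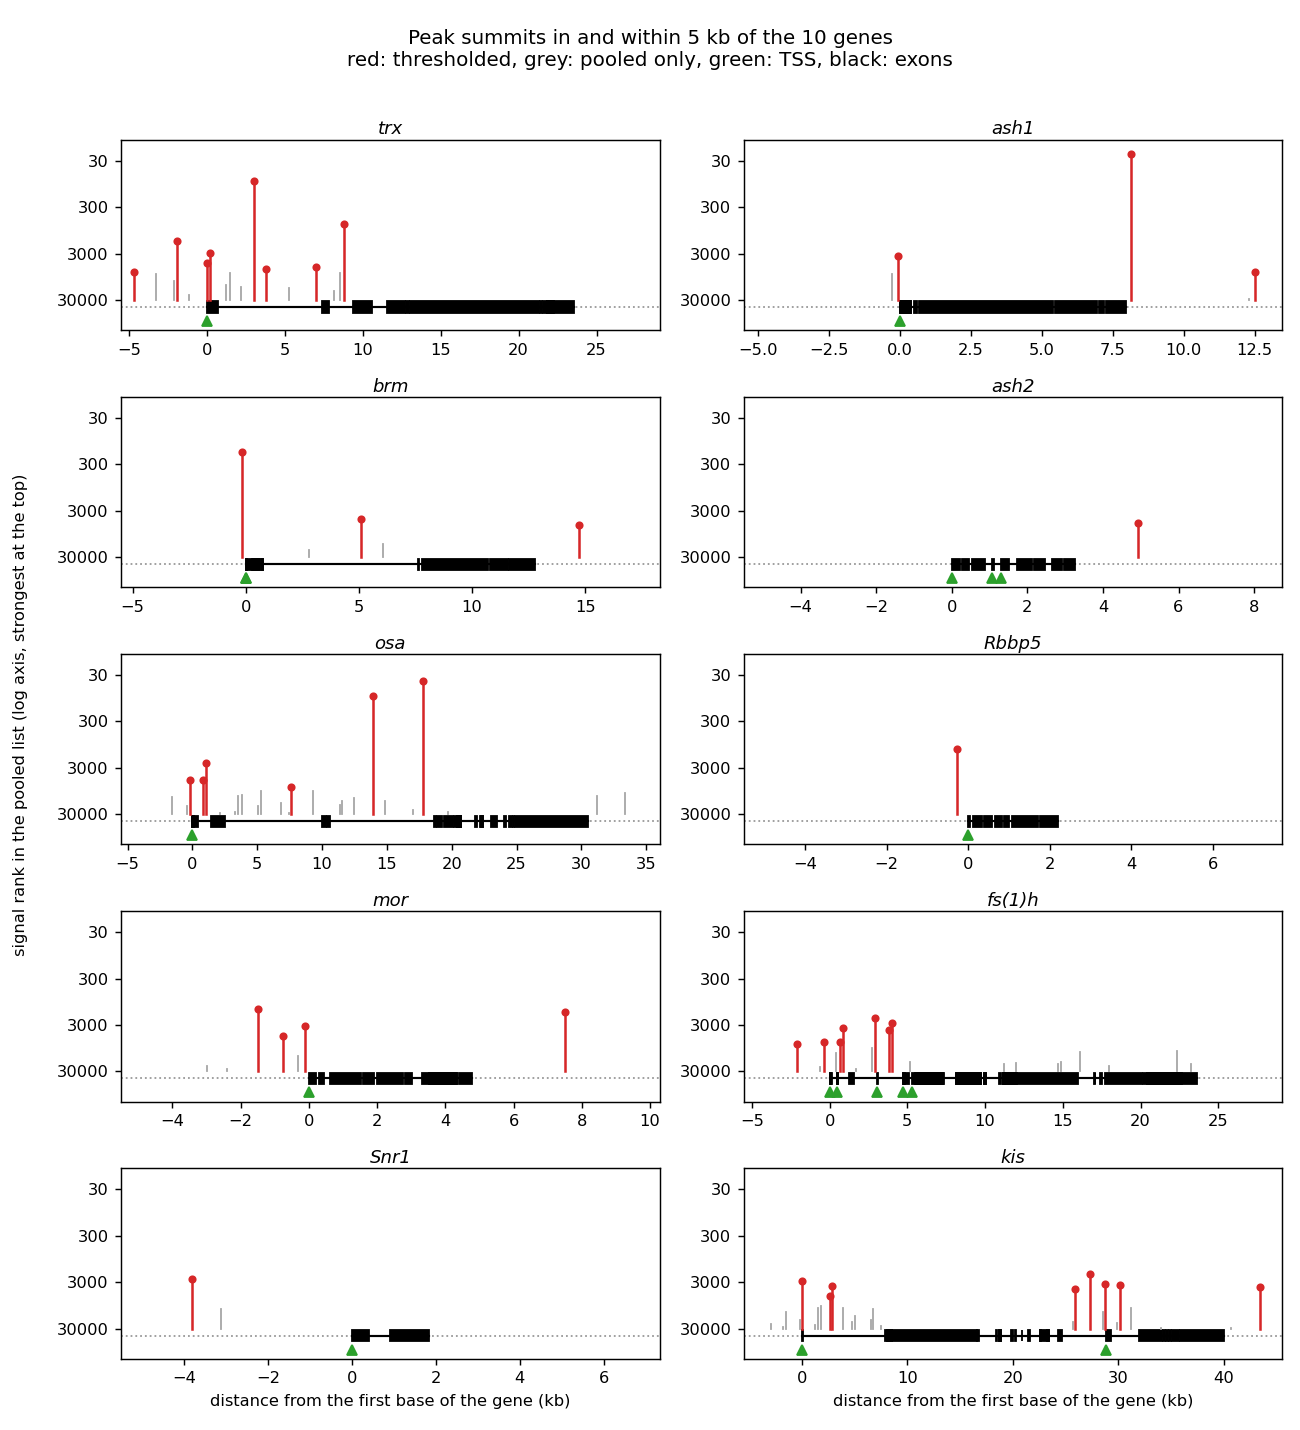
Position of peak summits along each of the 10 genes, with distance in kb from the first base of the gene on the x axis and signal rank in the pooled list on a log y axis with the strongest at the top. Red stems with dots are thresholded summits, grey stems are summits of the pooled list below the threshold, green triangles are TSSs and black boxes are exons; the tallest stems stand inside osa and trx, past the 3′ end of ash1 and at the start of brm.

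The strongest summits were mostly not at the genes' own starts, and neither were the 42 as a whole. Within 500 bp of a TSS of the named gene lay 13 of the 42. Of the 42, 6 ranked 1000 or higher in strength, all 6 were supported by all 4 replicates, and 1 of the 6, that of brm, was within 500 bp of a TSS of the named gene. The others were past the end of ash1, inside osa (2 summits) and inside trx (2 summits). The 5 of ranks 22 to 160 all stayed between rank 17 and rank 192 in the 4 replicate lists, and the sixth, of rank 685, between 349 and 919.

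The peak of highest signal lay just past the 3′ end of ash1 (FBgn0005386, 3L, 19590773 to 19598755, reverse strand), which encodes a histone methyltransferase of the trithorax group. It spanned 3L from 19590378 to 19590895, with a thresholded rank of 22 and a signal of 6244. It ranked 17, 28, 17 and 28 in replicates 1 to 4, so replicate 1, which had no part in the list, placed it as high as the others did. The summit was 155 bp outside ash1 and 8137 bp from the ash1 TSS, but 94 bp upstream of the TSS of CG14100, the next gene, so it is a promoter peak of that neighbour by position. The promoter of ash1 itself had a weaker summit, 65 bp upstream of the TSS (3L, 19598580 to 19599059, rank 3361). It ranked 3429, 5393, 2602 and 3966 in replicates 1 to 4, all within the 7842 highest. A further summit 269 bp upstream, rank 8225 in the pooled list and below the threshold, lay 64 bp upstream of Taf6, which encodes a TFIID subunit and starts 333 bp away on the other strand. The other thresholded summit, rank 7565, was 4532 bp outside ash1 at the start of CG9330 and was supported by 1 replicate.

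In osa (FBgn0261885, 3R, 17687818 to 17718350, reverse strand), which encodes the ARID-domain subunit that marks one form of the Brahma complex, 2 of the strongest summits lay deep inside the gene. The first spanned 3R from 17700281 to 17700882 with rank 41 and signal 5210, and ranked 32, 50, 42 and 52 in replicates 1 to 4. It was 17758 bp downstream of the osa TSS in an intron, and 149 bp upstream of the TSS of the non-coding RNA gene lncRNA:CR46036, which lies within osa. The second, at 3R 17704173 to 17704651, ranked 85, and 86, 77, 102 and 102 in replicates 1 to 4. It lay 13943 bp downstream of the osa TSS and inside an exon of another nested non-coding gene, lncRNA:CR46035. At the osa promoter the thresholded summit was weak. It lay 230 bp upstream of the single TSS with rank 5527, and ranked 8114, 7212, 6078 and 2825 in replicates 1 to 4, so replicate 1 placed it just outside its 7842 highest. A pair of summits 819 and 1018 bp into the first part of the gene ranked 5421 and 2320. The sixth, in an intron 7610 bp downstream of the TSS, ranked 7722, the lowest of all 42, and was supported by 2 replicates.

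Inside trx (FBgn0003862, 3R, 14263358 to 14286903, reverse strand), the gene of the histone methyltransferase that gave the group its name, 5 of the 8 thresholded summits lay within the gene. The strongest was intronic, 3024 bp downstream of the TSS (3R, 14283591 to 14284119), with rank 83 and signal 3997, and ranked 82, 86, 100 and 74 in replicates 1 to 4. Another intronic summit, 8813 bp downstream, had rank 685 and ranked 919, 717, 798 and 349. Both ranked above the best promoter summit of the same gene in all 4 lists. At the single TSS, used by all 5 annotated transcripts, summits 197 bp downstream and 5 bp upstream ranked 2922 and 4702. The best promoter rank of trx was 6251, 4669, 1123 and 2932 in replicates 1 to 4, the widest relative range among the genes with a thresholded promoter summit. Intronic summits 3810 and 6975 bp downstream ranked 6397 and 5755. The remaining 2 lay outside trx, 268 bp upstream of the TSS of the neighbour red (rank 1638) and 1160 bp into red (rank 7450).

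Of the summits at the genes' own promoters, that of brm was by far the strongest. brm (FBgn0000212, 3L, 15970082 to 15982869, reverse strand) encodes the ATPase of the Brahma complex, and its summit lay 160 bp upstream of the TSS used by 5 of its 6 transcripts (3L, 15982797 to 15983217). It had rank 160 and signal 3012, and ranked 171, 130, 192 and 191 in replicates 1 to 4. The summit sits between brm and Arl1, a gene for a small GTPase of the Golgi that starts 266 bp away on the other strand, and it was nearer to Arl1, at 106 bp. The other 2 thresholded summits of brm were an intronic one, rank 4601, 736 bp upstream of the TSS of the nested gene CG17028, and one at the start of CG10516, 1954 bp outside brm, with rank 6050.

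The sequences under these 5 strongest positions are shown because they had the highest signal among the 42. Each is the dm6 sequence (RefSeq, Release 6) from 50 bp before to 50 bp after the summit, read 5′ to 3′ on the strand of the named gene, which is the reverse strand for all of them, with the longest unbroken run of A and T in capitals.
ash1, chr3L:19590568-19590668: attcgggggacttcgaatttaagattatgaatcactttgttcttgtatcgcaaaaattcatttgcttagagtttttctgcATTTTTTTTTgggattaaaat
osa, chr3R:17700542-17700642: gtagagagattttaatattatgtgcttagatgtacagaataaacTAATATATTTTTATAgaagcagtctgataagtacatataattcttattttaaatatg
osa, chr3R:17704357-17704457: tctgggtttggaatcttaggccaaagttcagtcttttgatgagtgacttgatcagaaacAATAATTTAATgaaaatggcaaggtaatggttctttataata
trx, chr3R:14283829-14283929: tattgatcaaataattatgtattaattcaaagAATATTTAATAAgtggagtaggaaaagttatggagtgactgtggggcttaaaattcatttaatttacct
brm, chr3L:15982979-15983079: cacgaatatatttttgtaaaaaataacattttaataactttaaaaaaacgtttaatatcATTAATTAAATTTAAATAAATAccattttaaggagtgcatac
The brm window held 83.2% A and T with a run of 22 bases, and the osa window at rank 41 held 78.2% with a run of 15 bases centred 1 base from the summit. The lowest of the 5 was the osa window at rank 85 with 67.3%.

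**Figure D2:**
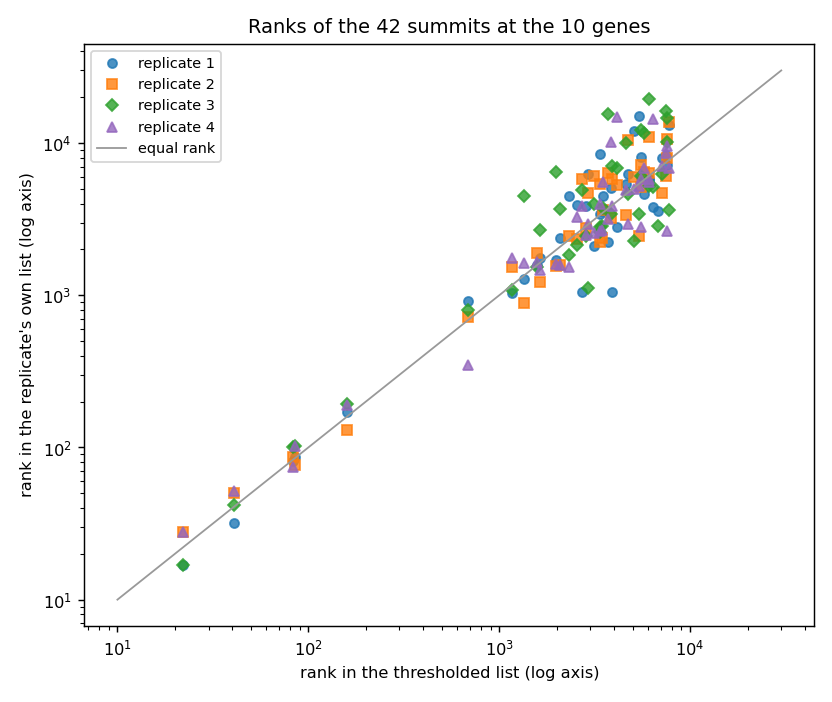
Rank of each of the 42 thresholded summits in the replicates' own lists (y axis, log) against its rank in the thresholded list (x axis, log), with 1 symbol per replicate and the line of equal rank in grey; a replicate summit within 200 bp was taken as the same summit. The summits of ranks 22 to 160 lie close to the line in all 4 replicates, while most of those of rank over 1000 scatter around it.

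A replicate summit within 200 bp was present in all 4 lists of 30000 for 39 of the 42. The matching share over all thresholded summits is not given here. Over those 39 summits the Spearman correlation of ranks was 0.47 between replicates 1 and 3 and 0.76 between replicates 2 and 4, the lowest and highest of 6 pairs. The summits share a control file and 3 of the 4 replicates made the list, so these values are a description. In 5 cases neighbouring summits were 199 to 205 bp apart, namely 1 pair each at trx, osa and kis and 2 pairs at fs(1)h. In such pairs the same replicate summit could count for both.

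Other Brahma complex genes had weaker or displaced peaks. For mor (FBgn0002783, 3R, 15968134 to 15972913, reverse strand), which encodes a core scaffold subunit, the promoter summit was 118 bp upstream of the TSS (3R, 15972902 to 15973205, rank 3118), and ranked 2104, 6072, 3950 and 2573 in replicates 1 to 4. A stronger summit (rank 1355) lay 1491 bp upstream, inside Hel89B, whose TSS is 385 bp from that of mor on the other strand, and a further one 763 bp upstream (rank 5079) was 378 bp into the same neighbour. The fourth, rank 1579, was 44 bp upstream of CG32856 and 2739 bp outside mor. No thresholded summit lay inside mor.

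The result for Snr1 (FBgn0011715, 3R, 5470926 to 5472754, forward strand), the gene of another core subunit of the complex, differed between the pooled list and the replicates. Neither the thresholded nor the pooled list held a summit within 500 bp of its TSS, and its only thresholded summit (3R, 5466975 to 5467243, rank 2550) was 3811 bp upstream, at the start of the ribosomal protein gene RpL35A. Yet each replicate list had a promoter summit for Snr1, 125, 58, 177 and 49 bp upstream of the TSS in replicates 1 to 4, with ranks of 2544, 5168, 1594 and 3998. The range of these ranks overlaps those of mor and ash1. Of 3080 protein-coding genes with a promoter summit among the 7842 highest of every replicate, 15 (0.487%) had none in the pooled list, and Snr1 and its neighbour mRpL44, which starts 290 bp away on the other strand, were among them. Why the pooled list lacks this peak was not tested. Counted on the replicates' own lists, 8 of the 10 genes had a promoter summit among the 7842 highest in all 4 replicates. Over all protein-coding genes the same held for 3080 of 13945. The 8 were the genes named for the thresholded list without osa and with Snr1.

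**Figure D3:**
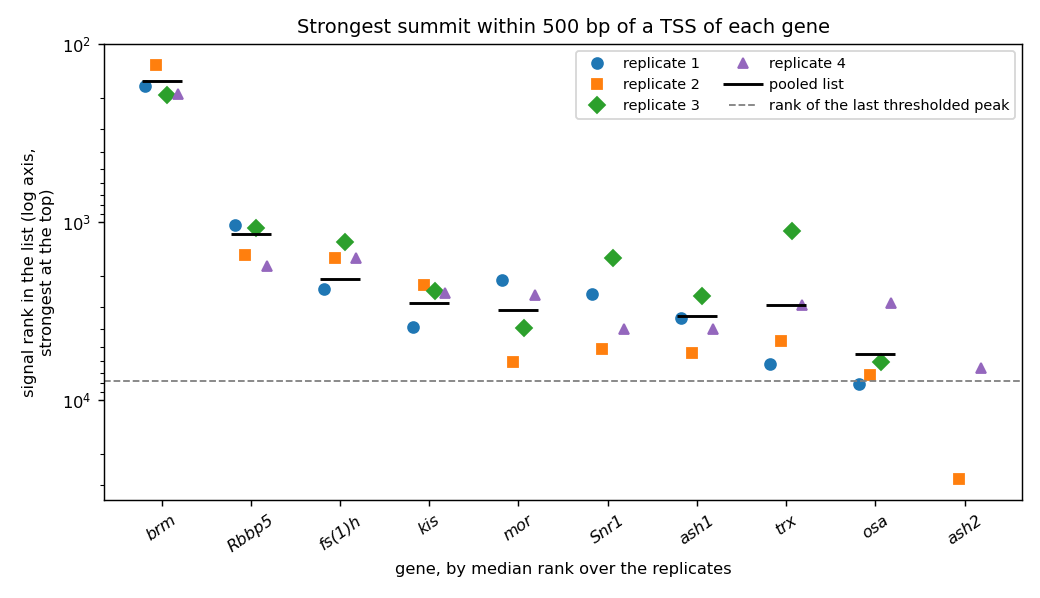
Rank of the strongest summit within 500 bp of any TSS of each gene, on a log y axis with the strongest at the top, for each replicate (symbols) and the pooled list (black bars), with genes ordered by their median over replicates and the rank of the last thresholded peak dashed. The 4 points of brm lie between 130 and 192, apart from all other genes; Snr1 has 4 points and no bar, and ash2 has 2 points.

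Among the genes for methyltransferase subunits, Rbbp5 had a clear promoter peak and ash2 did not. The products of both are core subunits shared by the COMPASS family of histone methyltransferases, to which Trithorax belongs. For Rbbp5 (FBgn0036973, 3L, 20345736 to 20347942, reverse strand) the only summit in the window lay 288 bp upstream of its TSS (3L, 20348096 to 20348409, rank 1162, signal 1111), and ranked 1031, 1525, 1078 and 1759 in replicates 1 to 4. It was nearer to eRF1, the gene of the translation termination factor, at 125 bp; the TSSs of the pair are 413 bp apart on opposite strands. For ash2 (FBgn0000139, 3R, 24650125 to 24653376, forward strand) the only pooled summit was 1684 bp past the end of the gene, 100 bp upstream of CG6695 (3R, 24654820 to 24655299, rank 5505), and ranked 5920, 5182, 12095 and 5789 in the replicates. None of the 6 lists had a summit within 500 bp of the first of its 3 TSSs, which lies 82 bp from that of puf. At the 2 internal TSSs replicate 4 had a summit at rank 6575 and replicate 2 one at rank 27768, while replicates 1 and 3 had none.

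The genes with several promoters, fs(1)h and kis, had summits at more than 1 of them. fs(1)h (FBgn0004656, X, 8037808 to 8061436, reverse strand) encodes a bromodomain protein of the BET family, and 3 of its 5 TSSs had a thresholded summit within 500 bp. The strongest was 177 bp upstream of an internal TSS used by 1 of 9 transcripts (X, 8058270 to 8058809, rank 2090). The best promoter rank of the gene was 2376, 1579, 1286 and 1589 in replicates 1 to 4, each at that TSS. Summits 394 and 190 bp downstream of another TSS ranked 3440 and 6809, and one 333 bp upstream of the first TSS (rank 7084) was nearer to mys, the gene of a beta integrin, at 124 bp. A pair of summits in an intron 738 bp upstream of one TSS and 720 bp downstream of another ranked 2715 and 3895. The seventh, rank 7555, lay in an intron of mys, 2092 bp outside fs(1)h, was supported by 1 replicate and had no summit in the list of replicate 1. The 2 innermost TSSs had no thresholded summit, and the best in the pooled list ranked 19140.

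For kis (FBgn0266557, 2L, 210735 to 250823, reverse strand), which encodes a CHD-family remodelling protein, both promoters had a summit close to the TSS. At the TSS of 5 of its 6 transcripts the summit was 28 bp upstream (2L, 250688 to 250983, rank 2856), with ranks of 3855, 2787, 2438 and 2488 in replicates 1 to 4. At the internal TSS of the short transcript it was 88 bp upstream (2L, 221930 to 222152, rank 3360), with ranks of 8479, 2241, 2826 and 2647, so replicate 1 alone placed it outside its 7842 highest. The strongest summit of the gene, rank 1971, was 6 bp downstream of the TSS of the nested lncRNA:CR44222 and ranked 1709, 1547, 6493 and 1594. Intronic summits 1273 bp downstream and 2921 bp upstream of the internal TSS ranked 3505 and 4156. A pair 2860 and 2655 bp downstream of the first TSS ranked 3699 and 6094, and the last lay at the start of Tbc1d15-17, 3344 bp outside kis, at rank 3832.

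Ordered by the median of the best promoter rank over replicates, brm came first at 181, then Rbbp5 at 1301.5, fs(1)h at 1584, kis at 2463, mor at 3261.5, Snr1 at 3271, ash1 at 3697.5, trx at 3800.5 and osa at 6645. ash2 came last, with a value in 2 replicates only. The range of brm (130 to 192) did not overlap that of Rbbp5 (1031 to 1759). From Rbbp5 onward each gene's range over replicates overlapped that of the next in all 8 cases. Overlap of ranges leaves out the matching of ranks by replicate. Within each of the 4 replicates fs(1)h ranked above kis. No other neighbours in that order with a value in all 4 replicates kept the same order in each.

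Promoter sequences of the other genes with a thresholded promoter summit are shown beside the windows of ranks 22 to 160, in the same way. That of trx is left out because its summit lies in a transcribed leader, and that of kis stops at the TSS.
Rbbp5, chr3L:20348180-20348280: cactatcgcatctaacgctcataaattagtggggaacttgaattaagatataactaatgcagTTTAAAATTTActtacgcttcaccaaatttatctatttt
mor, chr3R:15972981-15973081: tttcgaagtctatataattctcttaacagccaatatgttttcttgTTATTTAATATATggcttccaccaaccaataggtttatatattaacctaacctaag
fs(1)h, chrX:8058485-8058585: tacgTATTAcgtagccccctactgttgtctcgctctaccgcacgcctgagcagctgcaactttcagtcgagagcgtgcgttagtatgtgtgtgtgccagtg
kis, chr2L:250824-250901: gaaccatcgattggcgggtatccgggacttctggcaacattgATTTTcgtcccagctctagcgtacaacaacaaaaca
ash1, chr3L:19598770-19598870: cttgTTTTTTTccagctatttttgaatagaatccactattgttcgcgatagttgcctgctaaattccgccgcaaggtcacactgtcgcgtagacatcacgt
osa, chr3R:17718530-17718630: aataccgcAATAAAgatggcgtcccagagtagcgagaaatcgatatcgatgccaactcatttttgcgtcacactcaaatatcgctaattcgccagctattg
Those of Rbbp5 and mor held 70.3% and 71.3% A and T. They were below the windows of brm (83.2%), osa at rank 41 (78.2%) and trx at rank 83 (74.3%). They were not below those of ash1 at rank 22 (70.3%) and osa at rank 85 (67.3%). That of fs(1)h held 45.5% with a longest run of 5 bases. In the ash1 and osa promoter windows the value was 56.4% each.

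Summits at the 10 genes lay in sequence richer in A and T than its surroundings, as summits did over the whole list. The median within 50 bp of the 42 summits was 64.4%, with a range of 43.6% to 83.2%, against 67.3% over all 7842 summits. In windows of the same width 500 bp to either side the median was 55.9% at the 10 genes and 56.9% over all. The value at the summit was the higher in 32 of 42 cases (76.2%), against 74.5% over all. For the 6 summits of rank 1000 or better the median was 76.2%, against 72.3% for all thresholded summits of such rank. The other 36 had a median of 62.4%, against 66.3% for all others. Immunoprecipitated DNA and reads can be biased by base content, and the part of such bias was not tested.

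**Figure D4:**
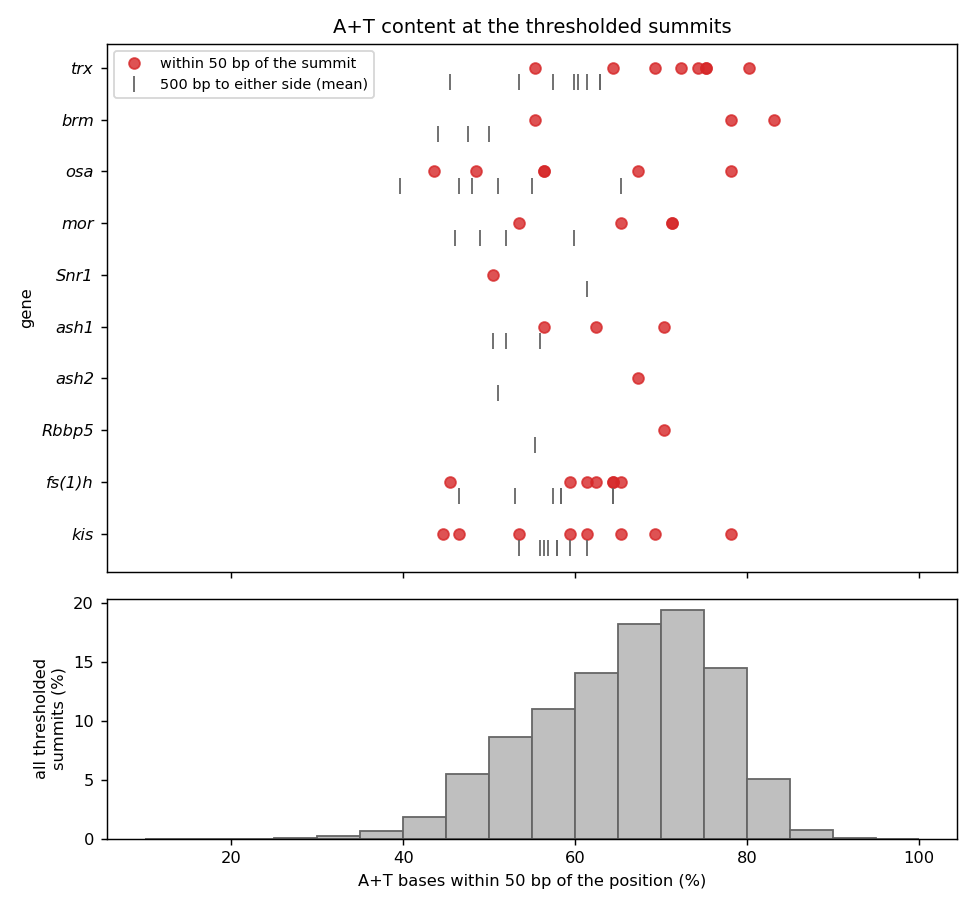
Share of A and T bases, in %, within 50 bp of a position. Upper panel, for each of the 10 genes, the windows centred on its thresholded summits (red dots) and the mean of the windows 500 bp to either side (grey ticks); lower panel, the distribution over all 7842 thresholded summits as a share of summits in %. At 32 of the 42 summits the value exceeds that of its own flanks, and the exceptions are at trx, osa, Snr1, fs(1)h and kis.

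Within 50 bp of the 42 summits, 8 short motifs were searched on both strands. GAGAG, part of the site of the GAGA factor, was in 9 (21.4%), against 11.3% of all thresholded summits, 13.8% of windows 500 bp away and 12.6% of windows around all TSSs. At the 10 genes' own flanks it was in 7 windows 500 bp to the left of the 42 summits and in 9 windows 500 bp to the right, about as many as at the summits. The 9 at the summits were spread over osa (3), kis (3), and trx, mor and fs(1)h (1 each). TATAAA was in 13 (31.0%), against 22.8% of all summits, 10.8% of windows 500 bp away and 15.0% of TSS windows, and it can fall within A and T runs such as those printed above. CANNTG was in 19 (45.2%), against 34.0% of all summits, 41.0% of windows 500 bp away and 43.3% of TSS windows. GTGTGT was in 5 (11.9%), against 7.86%, 9.07% and 7.07% in the same order. GCCATTT was in 3 (7.14%), against 1.94%, 2.57% and 2.28%, and TATCGATA in 1 (2.38%), against 2.03%, 0.287% and 3.76%. CACGTG and CAGGTA were in none, against 0.816% and 1.94% of all summits. A ninth, GGTCACAC, part of a core promoter element of housekeeping genes, was added after the sequences were seen and was in 4 (9.52%), against 1.67% of all summits, 0.185% of windows 500 bp away and 3.9% of TSS windows. The 4 lay at the starts of ash1, trx, CG10516 and CG9330, and the ash1 one is in the window printed above. A single summit is 2.38% of the 42, and a match is no evidence of binding.

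Below the threshold the pooled list held 70 further summits at the 10 genes, so that 37.5% of their 112 pooled summits passed the threshold, against 26.1% of the whole list. They were 20 at osa, 19 at kis, 14 at fs(1)h, 9 at trx, 3 at mor, 2 each at brm and ash1 and 1 at Snr1, and none at ash2 and Rbbp5. By place, with promoters taken first, 29 were in introns, 26 at promoters, 7 in coding exons, 6 in 3′ UTRs and 2 in other exons. Peaks of all 4 full replicate lists overlapped 35 of them, and no replicate overlapped 2. The matching share over all pooled peaks below the threshold is not given here. The weakest thresholded summits at these genes, at osa, ash1 and fs(1)h, had ranks of 7722, 7565 and 7555 and signals of 299 to 306, and the first ones below the threshold, at trx (2) and ash1, had pooled ranks of 8017, 8052 and 8225 and signals of 290, 289 and 284.

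Most of the 10 genes start close to another gene. For 7 of the 10 a TSS of a protein-coding gene on the opposite strand lay within 500 bp, at 82 to 413 bp, against 27.8% of all protein-coding genes. These 7 were brm, mor, Snr1, ash1, ash2, Rbbp5 and fs(1)h. A thresholded promoter summit was present at 58.6% of all genes with such a neighbour and at 21.0% of those without. The part of shared promoters in the count of 8 of 10 was not tested, and which of 2 divergent genes a summit between them belongs to cannot be told from position.

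Other genes of the same complexes and families were counted in the same way. They too were chosen with earlier results of these data known. Of 33 such genes 19 had a thresholded promoter summit (57.6%), against 31.4% of all protein-coding genes. Of 7 further Brahma complex genes 5 had one, led by Bap60 (rank 1535), BCL7-like (3643) and Bap170 (4676); BCL7-like had no promoter summit in replicate 3. Of 11 genes of the COMPASS family 4 had one (36.4%), namely Lpt (1733), trr, a methyltransferase gene (2543), Utx, a histone demethylase gene (2927), and Mnn1 (4965). Both genes for partners of Ash1 had one, Caf1-55 at rank 4855 and MRG15 at rank 7416. Of 8 other trithorax group genes 6 had one, led by Trl, the gene of the GAGA factor (1779), lolal (2752) and tna (3001). Of 3 other CHD genes Chd1 (930) and Mi-2 (2237) had one and Chd3 had none. Neither tbrd-1 nor tbrd-2, the other BET-family genes, had one. No rank in this wider list was as high as that of brm.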

How the data were processed

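Chromatin immunoprecipitation of GFP-tagged CG8924 was profiled by sequencing in 4 biological replicates, with fragments of 200 to 800 bp per the labels. The authors deposited peak lists in narrowPeak form on dm6, per the labels, 1 per replicate, 1 from pooled reads of replicates 2, 3 and 4, and 1 thresholded for reproducibility. Per the deposited notes, the thresholded list was derived from the lists of replicates 2, 3 and 4 and the pooled list, and each of the other lists was called against the same control file; the sources used here do not name the aligner, the peak caller or the threshold. The deposited signal value of each peak has no stated unit and was used as a rank within its list. The deposited −log10 q-value was 4.25 throughout the thresholded list and reached down to 0.432 in the pooled list, so low pooled ranks are weak calls. Read counts and depth are unknown, so no interval that needs them is given.

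Summits (start plus offset) were placed on Ensembl release 115 genes without transposable elements (18164 genes, 23581 distinct TSSs), and sequences were read from RefSeq Release 6. Rank in a replicate is that of its nearest summit within 200 bp. Python 3.11.15, NumPy 2.4.6, pandas 2.3.3, SciPy 1.17.1 and matplotlib 3.10.9 were used, and the steps were tested on simulated peaks. No test between groups was possible with 1 group, and no set test was made. The 10 genes, the 33 further genes and the 8 motifs were chosen with earlier results of these data known. Genes named were the 10 genes, genes whose TSS is nearest to one of their summits or which adjoin them, and up to 3 of each further subgroup by promoter rank, to which Mnn1 was added after its value was seen. Alternatives varied the promoter window, the flank, the threshold, the overlap that counts as support, the motif window and the replicates used.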

Additional observations from a re-analysis of the deposited data

Results flagged for a closer look

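In 49 sets of 4 replicate ranks, 1 replicate stood far from the other 3 in 6 sets (12.2%), by a gap above Dixon's 95% critical value. Chance flags about 1 in 20 such sets if they are separate, and ranks are skewed. The 49 were not all separate. The best promoter ranks of brm, Rbbp5, mor, ash1, trx and osa repeat those of a summit, and paired summits can share a replicate rank. The summit at the start of CG10516 near brm ranked 10898 in replicate 2, against 5722, 5229 and 5780 in replicates 1, 3 and 4. The summit past the end of ash2 ranked 12095 in replicate 3, against 5920, 5182 and 5789 in the others. Of the 6 sets, 4 were at kis. The summit at lncRNA:CR44222 ranked 6493 in replicate 3, against 1709, 1547 and 1594, and the intronic summit 2655 bp downstream of the first TSS ranked 19533 in replicate 3, against 5835, 6400 and 5510. In replicate 1 the summit at the internal kis promoter ranked 8479, against 2241, 2826 and 2647. In the same replicate the best promoter rank of kis was 3855, against 2241, 2438 and 2488. Both sets use the 2241 of replicate 2, which lies at the internal TSS, so they are not separate cases. The other best ranks lie at the first TSS, where replicate 2 ranked 2787, so that set mixes promoters. The causes of the 6 flagged sets were not tested.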

How the results depend on the processing

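Of 61 values under alternatives, 49 stayed within 1.5 times the count reported, or within 1 SD for a mean or median. For the A and T median the SD was that of the single summits (10.4), a wide limit for a median. All alternatives of that median fell within it, so they say little about its stability. The count of promoters among the 10 genes was 6 to 8 in all its alternatives. It was 7 or 8 when only thresholded peaks supported by all replicates but 1 were kept. The list itself was not remade without that replicate. Keeping only the 50% of thresholded peaks with the highest signal lowered the 42 summits to 25 and the 19 further genes to 11. Counting only inside the genes lowered the summits to 22 and those supported by all 4 replicates to 15, and keeping summits nearest a TSS of the named gene gave 18 and 15. Under that last rule summits below the threshold fell to 23 from 70 and summits with GAGAG to 5 from 9, and GAGAG within 25 bp was also in 5. Support from all 4 replicates dropped to 13 summits where 50% of each peak had to overlap, and was 41 with the full 30000 peaks per replicate. With a promoter window of 200 bp the mean number of genes per replicate was 7.25. The A and T content (61.7% to 66.7% in its alternatives) and the GGTCACAC motif were added after the data were seen. No paired analysis was possible because there was 1 group. Depth is unknown, so whether a missing summit reflects depth cannot be told.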
